A study of Mus musculus with 2 samples.

Results

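The genes described here are Ighm and Ighd, which encode the constant regions of the IgM and IgD heavy chains, Jchain, which encodes the joining chain of secreted antibody polymers, and the transcription factor genes Xbp1, Prdm1 and Irf4. They were chosen by symbol as the genes of IgM, IgD and antibody secretion, and all 6 were listed in both count tables, out of 29292 genes in the TAS-Seq table, 25459 in the BD WTA table and 30457 in either. Spleen cells were processed on the BD Rhapsody system, in which single cells are lysed in nanowells beside beads that capture polyadenylated RNA. The cells came from 3 pooled spleens of female C57BL/6J mice, aged 10 weeks, that carried subcutaneous Lewis lung carcinoma. These mice had been given 200 μg of anti-CD4 antibody per dose on days 5 and 9, and spleens were taken on day 12, frozen and later thawed. After reverse transcription of 2000 loaded cells, the beads were divided between TAS-Seq, which amplifies from a tail that terminal transferase adds to the cDNA, and the commercial BD WTA kit, which amplifies by random priming. Both libraries therefore share the tumour, the CD4 antibody, the pool of animals and the cartridge, and neither has an untreated control. Each method gave 1 library, so no test was run, each value describes these libraries, and a difference between the methods cannot be told apart from a difference between the cells on each set of beads.

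B cells first make IgM and then, on leaving the bone marrow, IgM and IgD together from 1 long primary transcript, which is cut and spliced in alternative ways. IgM is held in the membrane of a naive B cell as part of the antigen receptor, and it is released by plasmablasts and plasma cells after a switch to a shorter transcript end. Irf4, Prdm1 (Blimp-1) and Xbp1 drive this change: they shut down the B-cell programme and enlarge the secretory apparatus, while the J chain links IgM and IgA units into polymers. In the spleen, follicular B cells are known for high IgD and marginal zone B cells for high IgM with low IgD.

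The tables hold reads and not molecules, with 38656790 reads in 736 TAS-Seq barcodes and 31608259 reads in 716 BD WTA barcodes. After barcodes with fewer than 500 genes or over 25% mitochondrial reads were removed, 732 and 708 cells were left, and 0 barcodes were found in both tables. Reads per barcode ranged from 15378 to 262041 and from 11936 to 291602. Reads copied from the same molecule are not independent, so the exact binomial and exact Poisson 95% intervals below cover counting error only. Levels are CPM, which is reads scaled to a total of 1000000, pooled over the cells of a set unless a mean or median over cells is named. Clusters made without immunoglobulin genes and without the 6 genes gave 366 B-like cells and 251 T-like cells in the TAS-Seq library, and 334 B-like, 288 T-like and 26 NK-like cells in the BD WTA library. A TAS-Seq cluster of 67 cells and a BD WTA cluster of 60 cells showed B-cell markers together with Marcks, Plac8, Cybb and Tyrobp and stayed unnamed, as did a TAS-Seq cluster of 48 cells with T-cell and NK-cell markers. In B-like cells all 8 B-cell markers had reads, with a median summed level of 10409 and 10336 CPM per cell. The median sum of the 6 T-cell markers was 37.4 CPM and 0 CPM.

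Ighm and Ighd lie next to each other on the minus strand of chromosome 12 in GRCm38, Ighm at chr12:113418558-113422730 and Ighd at chr12:113406604-113416324, and both are annotated as immunoglobulin constant genes. No stretch of 31 bases is shared between the annotated transcripts of Ighm (1856 such words) and Ighd (1869 words), so reads of that length fall on only 1 of the pair. Secreted and membrane IgM are made from the same gene and differ at its end. The last 30 shared coding bases of the annotated Ighm transcripts are shown in lower case, followed in capitals by the coding bases that belong to the secreted end or to the membrane end, to show what a count per gene leaves out.
Secreted end (Ighm-201): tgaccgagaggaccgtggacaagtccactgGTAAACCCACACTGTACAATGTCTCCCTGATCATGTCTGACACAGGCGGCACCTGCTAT
Membrane end (Ighm-202): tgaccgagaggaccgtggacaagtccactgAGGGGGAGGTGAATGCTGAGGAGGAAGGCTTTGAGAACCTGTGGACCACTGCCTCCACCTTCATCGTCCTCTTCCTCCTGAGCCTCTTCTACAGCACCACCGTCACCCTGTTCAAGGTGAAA
The 59 bases of the secreted end lie at chr12:113420870-113420928, directly after the last shared base at position 113420929. The 122 bases of the membrane end lie further downstream, between positions 113418829 and 113419068, in separate exons. The tables give 1 count for Ighm, so secreted and membrane transcripts were not told apart in any value below.

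Ighm was the more widely detected of the pair in both libraries. Among B-like cells thinned to 20000 reads, 351 of 353 TAS-Seq cells held at least 5 Ighm reads (99.4%, interval 97.97% to 99.9%) and 296 of 301 BD WTA cells did (98.3%, 96.2% to 99.5%). Ighd reached 5 reads in 321 of the same TAS-Seq cells (90.9%, 87.4% to 93.7%) and in 251 BD WTA cells (83.4%, 78.7% to 87.4%). Unthinned, the Ighd shares were 92.1% and 86.2%. The level in a B-like cell outside the Jchain-high cells described further on had a median of 3395 CPM of Ighm by TAS-Seq (quartiles 2205 and 4626) and of 3892 CPM by BD WTA (2618 and 6278). For Ighd the median was 1704 CPM (964 and 2580) and 1823 CPM (658 and 2928). The quartile ranges of both libraries overlapped for both genes.

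T-like cells served as the background, since T cells make neither heavy chain protein. At 20000 reads, 42.7% of TAS-Seq T-like cells (36.4% to 49.2%) and 31.95% of BD WTA T-like cells (26.4% to 37.9%) held at least 5 Ighm reads. For Ighd the share was 0.415% (0.0105% to 2.29%) and 0.376% (0.00952% to 2.08%), far under that of B-like cells. The median depth was 52534 reads in TAS-Seq T-like cells and 42174.5 in BD WTA T-like cells, against 40812 and 34099 in the other B-like cells. At the level of 1 unthinned read, Ighd was found in 62.2% of TAS-Seq T-like cells and 5.21% of BD WTA T-like cells, so a low Ighd signal outside B cells was spread over more cells in the TAS-Seq library.

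**Figure D1:**
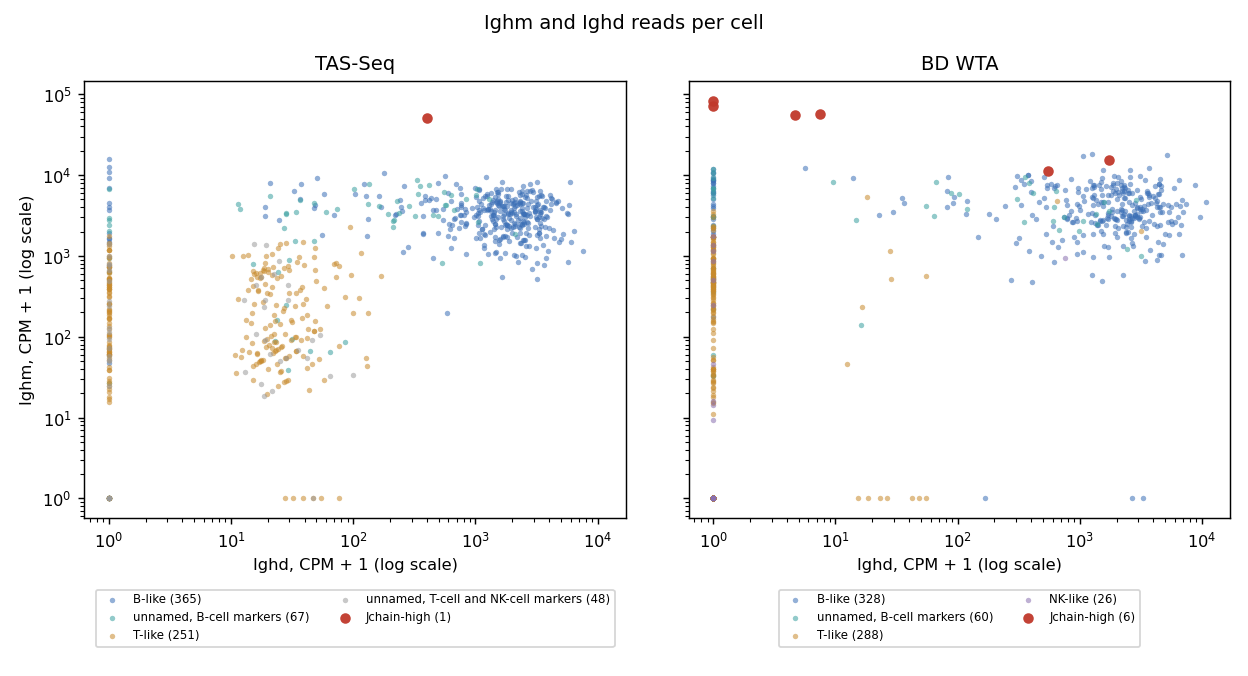
Ighm against Ighd in each filtered cell of the TAS-Seq library (left) and the BD WTA library (right), both as CPM + 1 on log scales, coloured by cell set with the number of cells in brackets. The B-like cells gather at high Ighm and high Ighd, the T-like cells lie lower on both axes, and the 4 BD WTA Jchain-high cells with most Jchain stand at the top left with almost no Ighd.

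The balance of the pair was measured in each cell as the percent of Ighm among Ighm plus Ighd reads, in cells with at least 10 reads of both together. Reads were not divided by transcript length (1493 and 1698 bases for Ighm, 802 and 1806 for Ighd), so the percent compares cells with each other and is no ratio of molecules. In the 363 TAS-Seq B-like cells that qualified the median was 66.3% (95% interval of the median over cells 62.99% to 68.97%), with quartiles of 51.7% and 79.98%. The 330 BD WTA cells had a median of 68.9% (64.1% to 74.2%) and quartiles of 52.9% and 86.2%. The intervals of both libraries overlapped, while the cells within a library covered nearly the whole scale, from 12.7% to 100% and from 0% to 100%. Ighm reads outnumbered Ighd reads in 286 TAS-Seq cells (78.8%, 74.2% to 82.9%) and in 263 BD WTA cells (79.7%, 74.9% to 83.9%). An Ighm share of 95% or more was held by 35 TAS-Seq cells (9.64%, 6.81% to 13.2%) and 55 BD WTA cells (16.7%, 12.8% to 21.1%), and 12 and 32 cells had no Ighd read at all. Cells without an Ighm read were rare, with 0 in the TAS-Seq library and 2 in the BD WTA library.

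**Figure D2:**
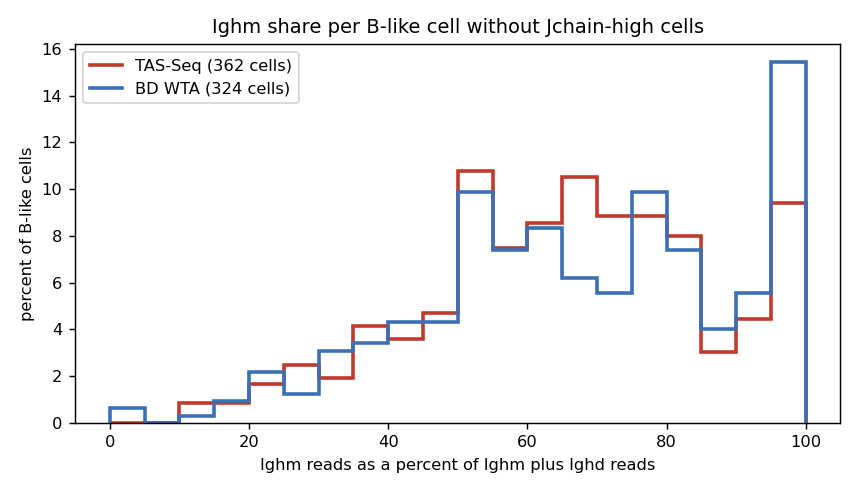
Distribution of the Ighm share over B-like cells without the Jchain-high cells, in steps of 5 percentage points, as a percent of the 362 TAS-Seq cells and the 324 BD WTA cells. Both libraries have a broad middle and a separate rise at the right edge, where the last step holds 9.39% of the TAS-Seq cells and 15.4% of the BD WTA cells.

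Ighm and Ighd levels did not rise together within B-like cells. Over all filtered cells, where B and non-B cells are mixed, Pearson's r of log2(CPM + 1) was 0.63 by TAS-Seq (732 cells) and 0.65 by BD WTA (708 cells). Within B-like cells Spearman's rank correlation was -0.15 in both libraries (363 and 330 cells). These cells share their library, and the part of the common read total in these correlations was not tested, so both are given as descriptions. The balance itself had a rank correlation of 0.08 and 0.19 with the read total of the cell. In the cells chosen by markers, on which the splits by gene below rest, it was 0.21 and 0.27, so deeper cells tended to a higher Ighm share there. The part of depth in those unthinned splits was not tested.

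The balance differed along genes of B-cell maturation, a list of 10 genes that had no part in the measure. To include the unnamed clusters, cells were taken by markers (at least 3 of the 8 B-cell markers and none of the 6 T-cell markers at 5 reads or more), which gave 372 TAS-Seq cells and 321 BD WTA cells. All of the TAS-Seq cells and 319 of the BD WTA cells had 10 reads of the pair, and neither Ighm nor Ighd is among the markers. Fcer2a, which encodes the CD23 receptor of follicular B cells, went with a lower Ighm share. The median Ighm share was 64.9% (60.6% to 68.3%) in 254 TAS-Seq cells with at least 5 Fcer2a reads and 83.9% (75.8% to 91.7%) in 63 cells with none. In the BD WTA library it was 65.2% (61.7% to 69.1%) in 198 cells and 86.5% (79.05% to 92.7%) in 109 cells. The intervals, which run over cells and not replicates, did not overlap in either library. Within the B-like clusters alone the same split gave 62.9% and 77.5% by TAS-Seq, and 65.3% and 79.7% by BD WTA, again with intervals apart.

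Genes known from marginal zone B cells stood on the other side. Cells with at least 5 reads of Myof, a membrane repair protein gene, had a median Ighm share of 93.6% (88.2% to 98.3%, 31 cells) in the TAS-Seq library and 98.3% (90.9% to 99.9%, 21 cells) in the BD WTA library, against 68.2% and 68.99% in cells without a read. For Dtx1, a Notch target gene, the medians were 80.6% (76.01% to 89.3%) and 88.5% (75.9% to 94.5%), against 65.8% and 65.6%. Cd1d1, the lipid-presenting molecule of these cells, gave 91.7% and 85.4%, against 68.96% and 67.96%. The tetraspanin gene Cd9 gave 94.1% and 93.1%, against 68.3% and 70.995%, and its BD WTA interval of 71.7% to 98.1% overlapped the 64.3% to 75% of cells without it. Cr2, the complement receptor CD21 that both B-cell types carry, gave 71.9% and 72.4% with overlapping intervals against 65.2% and 69.9%, and within the B-like clusters of the BD WTA library its order turned (67.6% against 72.7%). Ccr7 gave 64.1% against 71.3% and 65.2% against 72.3%, and Vpreb3 gave 70.2% against 69.7% and 71.7% against 70.7%. Cd93, a gene of immature B cells, reached 5 reads in 12 and 3 cells. Within the B-like clusters alone, intervals with and without reads stayed apart for Dtx1 by BD WTA (81.5% against 65.4%) and for Cd9 by TAS-Seq (90.3% against 65.8%), and they overlapped for Myof and Cd1d1 in both libraries.

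The unnamed clusters with B-cell markers had an Ighm share near the top of the scale. Of their cells, 43 in the TAS-Seq library and 34 in the BD WTA library met the marker rule, and these had median Ighm shares of 95.4% (91.9% to 98.3%) and 95.9% (81.8% to 99.2%). These clusters were also deeper, with medians of 76697 and 55830.5 reads per cell, against 33506.5 and 44849 in the TAS-Seq B-like clusters and 27976 and 39228.5 in those of the BD WTA library. Dtx1 reached 5 reads in 58.2% and 48.3% of the cells of these clusters and Fcer2a in 14.9% and 15%. In the B-like clusters Dtx1 reached 5 reads in 16.4% and 18.4% of the TAS-Seq cells and in 14.4% and 10.4% of the BD WTA cells. Fcer2a did so in 79.4% and 62.5%, and in 71.1% and 51.3%. Dtx1 is no marker of B cells, since it reached 5 reads in 18.6% to 36.7% of the cells of the T-like clusters. The same clusters showed Tyrobp and Cybb among their top genes, which myeloid cells carry, and not all of their cells met the B-cell rule (43 of 67 and 34 of 60), so they were not called a B-cell type.

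Among 5 genes that act on heavy chain RNA, Zfp318 went with a lower Ighm share. Zfp318 encodes a nuclear factor that is needed for the long transcript to reach the IgD exons. Cells with at least 5 Zfp318 reads had a median Ighm share of 63.8% (57.9% to 66.5%, 112 cells) in the BD WTA library, and cells without a read had 76.7% (72.7% to 80.1%, 190 cells). By TAS-Seq the values were 66.4% (62.99% to 70.2%, 186 cells) and 72.5% (67.4% to 79.6%, 141 cells), with overlapping intervals. The rank correlation between Zfp318 CPM and the Ighm share was -0.21 and -0.22. Ell2, an elongation factor of plasma cells, gave 79.5% against 68.1% by TAS-Seq and 83.6% against 70.5% by BD WTA, with overlapping intervals in both. Cstf2, a cleavage factor that favours the secreted end, reached 5 reads in 31 and 22 cells and gave 69.3% against 69.7% and 81.5% against 70.9%, also with overlapping intervals. Hnrnpll reached 5 reads in 0 and 2 cells and Eaf2 in 8 and 7.

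**Figure D3:**
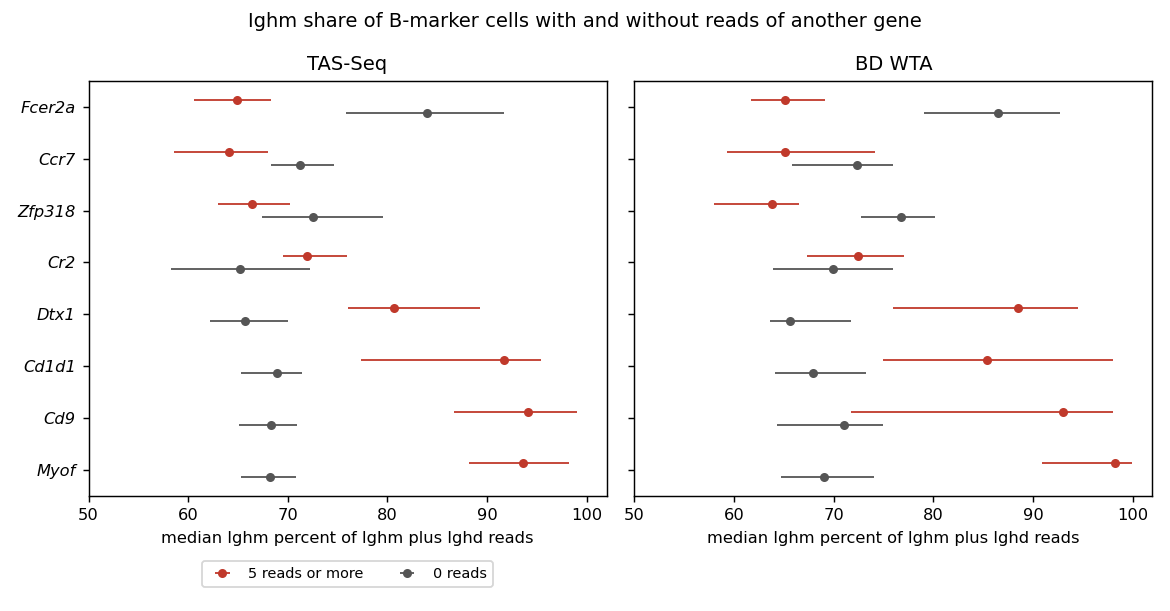
Median Ighm percent of Ighm plus Ighd reads in B-marker cells with at least 5 reads (red) or 0 reads (grey) of the gene on the vertical axis, with the 95% interval of the median over cells, in the TAS-Seq library (left) and the BD WTA library (right). Cells with Fcer2a sit near 65% in both panels, and cells with Myof at 93.6% and 98.3%.

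Jchain was held by very few cells. Its 1736 TAS-Seq reads lay in 46 cells, and the 5 highest cells held 97.4% of them (96.5% to 98.1%). In the BD WTA library 24556 reads lay in 32 cells, and the 5 highest held 99.4% (99.2% to 99.5%). The highest TAS-Seq cell alone held 95.5% of the library's Jchain reads, and the highest BD WTA cell held 31.7%. For comparison, the top 5 cells held 3.91% and 5.48% of the Ighd reads. Prdm1 reads came from 25 and 16 cells, of which the top 5 held 50.8% and 65.2%, and Irf4 from 159 and 67 cells, with 14.9% and 26.5%.

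Cells with at least 1000 CPM of Jchain, called Jchain-high here, numbered 1 of 732 in the TAS-Seq library (0.137%, 0.00346% to 0.759%) and 6 of 708 in the BD WTA library (0.847%, 0.312% to 1.84%). The intervals of these shares overlap. They were chosen by Jchain, so Jchain in them is no result. The lowest cell inside the limit had 6327 CPM by TAS-Seq and 3742 CPM by BD WTA, and the highest cell outside it had 173 and 854 CPM. All 7 cells lay in B-like clusters and none was called a doublet, though only 3 and 4 cells were called in all. The TAS-Seq cell held 7068 genes, against a median of 2932 in other B-like cells. The BD WTA cells held 850 to 4218 genes, against a median of 1581.5. Whether these cells were doublets was not tested further. The 8 plasma cell markers summed to 9525 CPM in the TAS-Seq Jchain-high cell and to between 7714 and 43599 CPM in the BD WTA ones. That sum includes Jchain, which chose the cells. Jchain alone was at 6327 CPM in the TAS-Seq cell and at 3742 to 40316 CPM in the BD WTA cells. T-cell markers summed to 45.8 CPM in the TAS-Seq cell and at most 12.9 CPM in the BD WTA cells, and NK-cell markers to 3.82 and 0 CPM. Of the 6 monocyte and macrophage markers, Lyz2, Csf1r, Adgre1 and C1qa were at 0 in all 7 cells. Ly6c2 was at 1088 CPM in the TAS-Seq cell and at 1841, 1703 and 12.9 CPM in 3 of the BD WTA cells, against a mean of 13.2 and 44.8 CPM in other B-like cells, and Cd68 was at 116 CPM in 1 BD WTA cell. Their part in the values below was not tested. Sdc1, which encodes the plasma cell surface protein CD138, had 79 reads in the TAS-Seq cell and reads in 3 of the 6 BD WTA cells, with 16 at most. Tnfrsf17, the plasma cell receptor BCMA, had 0 reads in the TAS-Seq cell and 76 reads in 1 BD WTA cell.

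The TAS-Seq Jchain-high cell held 1658 Jchain, 13322 Ighm and 105 Ighd reads, with 71227 reads of the kappa light chain constant gene Igkc, out of 262041 reads. In the 4 BD WTA cells with most Jchain, Jchain reads were 6264, 5643, 7777 and 4448, in the order of their Jchain CPM. Ighm reads in the same cells were 8853, 12009, 16793 and 15073, and Ighd reads were 1, 0, 0 and 1. Igkc reads were 81805, 84371, 113337 and 73117, so that Ighm, Igkc and Jchain together took between 33.6% and 70.4% of all reads of each of these cells. The other 2 BD WTA cells were smaller, with 36812 and 17370 reads in all. They held 266 and 65 Jchain reads, 412 and 264 Ighm reads, and 20 and 30 Ighd reads. Their Igkc reads were 614 and 1323, and Ighm, Igkc and Jchain together took 3.51% and 9.51% of their reads.

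The Ighm share of the pair was 99.2% in the TAS-Seq Jchain-high cell. It was 100% in 2 of the 6 BD WTA cells, 99.99% in 2 others, and 95.4% and 89.8% in the smaller ones. The other B-like cells had medians of 66.1% and 67.6%. Mean Ighm was 50839 CPM in the TAS-Seq cell against 3645 CPM in the other B-like cells, which is 13.9-fold, and 48858 against 4546 CPM by BD WTA, which is 10.7-fold. Mean Ighd was lower, with 401 against 1877 CPM (log2 ratio -2.23) and 380 against 2111 CPM (-2.47). Depth moved with these values: the TAS-Seq cell and the 4 larger BD WTA cells had between 144979 and 275436 reads, against medians of 40812 and 34099 in other B-like cells, and CPM divides by that total.

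Xbp1, the factor that expands the secretory apparatus, was read in all 7 cells. The TAS-Seq cell held 239 reads (912 CPM, against a mean of 52.3 CPM in other B-like cells). The BD WTA cells held 246, 193, 391, 521, 41 and 48 reads, in the same order, with a mean of 1727 CPM against 69.9 CPM. These are log2 ratios of 4.12 and 4.63, and each of the 7 cells stood above the mean of the other B-like cells. Irf4, which starts the plasma cell programme, varied. The TAS-Seq cell had 13 reads (49.6 CPM against 82.7 CPM), and the BD WTA cells had 0, 68, 41, 32, 62 and 0 reads, with a mean of 408 CPM against 98.7 CPM. Prdm1, which encodes Blimp-1, was nearly unread in these cells. It had 1 read in the TAS-Seq cell, 2 reads in each of 2 BD WTA cells and 0 in the other 4, so that these cells held 0.272% and 1.64% of all Prdm1 reads of their library. Of the genes of the 6 with at least 100 CPM in either set, 3 were 2-fold higher and 1 lower by TAS-Seq, where 61.3% of all genes differed, and 4 were higher and 1 lower by BD WTA, where 73.2% differed. With only the 4 BD WTA cells over 10000 CPM of Jchain, a choice made after the data were seen, 3 were higher and Irf4 was no longer among them. Its highest value, 1684 CPM, came from 62 reads in 1 of the smaller cells. Jchain, which chose the cells, is counted among the higher ones. Xbp1 in both libraries and Irf4 by BD WTA reached 100 CPM only in the Jchain-high cells, so the filter favoured counting them as higher. Only Ighm was counted as higher apart from these rules. Prdm1 was under that level in both libraries and Irf4 in the TAS-Seq library.

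**Figure D4:**
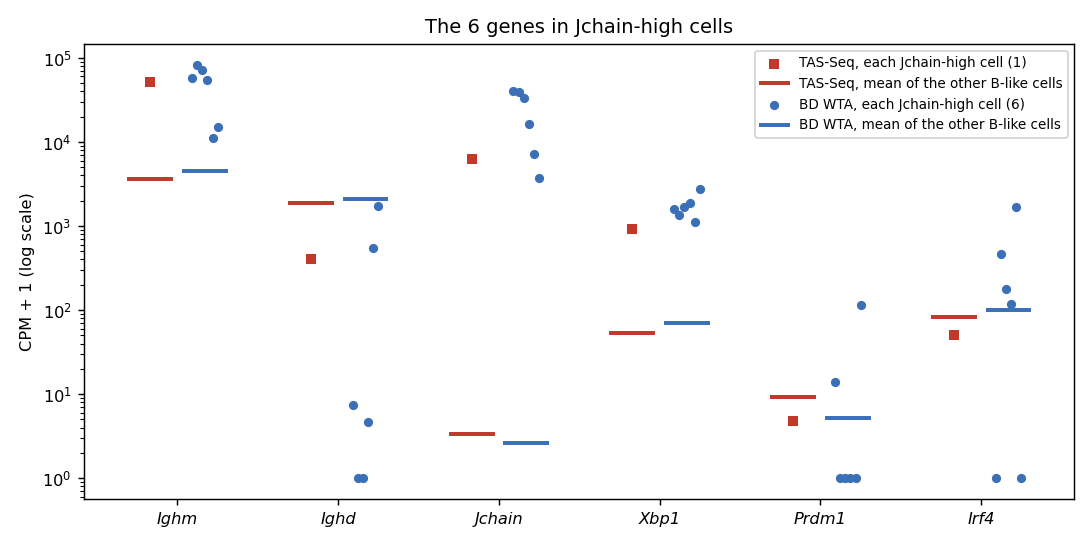
CPM + 1 on a log scale of the 6 genes in each Jchain-high cell (squares, 1 TAS-Seq cell, and circles, 6 BD WTA cells), with bars at the mean of the other B-like cells of the same library. Ighm and Xbp1 lie above the bar in all 7 cells and Ighd lies below it in all 7, while Prdm1 has 0 reads in 4 cells.

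Together the Jchain-high cells took 0.679% of all reads of the filtered TAS-Seq cells and 2.74% of those of the BD WTA cells. They held 14.01% and 40.7% of the Ighm reads, 14.02% and 39.7% of the Xbp1 reads, 29.2% and 67.1% of the Igkc reads, and 0.345% and 0.205% of the Ighd reads. The 5 cells with most Ighm held 17.2% (16.96% to 17.4%) of the TAS-Seq Ighm reads and 42.2% (41.9% to 42.5%) of the BD WTA Ighm reads. Of these 5, 1 TAS-Seq cell and 4 BD WTA cells were also among the 5 with most Jchain. With each cell weighted equally by CPM, the top 5 cells held 5.99% and 13.7% of Ighm.

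Just outside the limit, a BD WTA cell of the NK-like cluster held 34 Jchain reads with 0 reads of Ighm, Ighd, Igkc and Xbp1. Another BD WTA cell held 20 Jchain reads, 1931 Ighm and 79 Ighd reads and 414 reads of the proliferation gene Mki67, out of 268938. The next held 14 Jchain reads, 2591 Ighm reads and 1 Ighd read, together with 256 reads of the IgG3 gene Ighg3. The highest TAS-Seq cell outside the limit held 18 Jchain reads, 569 Ighm and 13 Ighd reads, and 18 Ighg3 reads.

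The secretory list of 24 genes was set against the other B-like cells, with 2-fold as the count and at least 100 CPM in either set as the filter. A gene well under 100 CPM in other B-like cells passes only through high Jchain-high cells, so the filter fixes it as higher. That covers Sdc1, Derl3, Fkbp11, Creld2, Edem1 and Sdf2l1 by TAS-Seq. By BD WTA it covers Ell2, Eaf2, Derl3, Fkbp11, Creld2 and Sdf2l1. Spcs1, Dnajb9 and Slamf7 by TAS-Seq were less far under 100 CPM in other B-like cells. So were Edem1, Txndc5, Ssr4, Spcs1, Slamf7 and Trp53inp1 by BD WTA. These genes also passed only through the Jchain-high cells, so they could not count as lower. The counts therefore describe the cells and give no support. Counts in the TAS-Seq library describe 1 cell. There 20 genes passed the filter and 18 of them were higher in the Jchain-high cell, when 24.9% of all 2499 genes over the filter were higher. Their median log2 ratio was 3.14, against -0.41 for all genes. In the BD WTA library 21 genes passed and 19 were higher, against 22.2% of 2154 genes, and the medians were 2.53 and -1.05. The 4 BD WTA cells over 10000 CPM of Jchain gave 18 higher of 21, against 11.3% of genes. The 2 smaller cells gave 9 higher and 3 lower of 13 that passed, against 33.4% of genes higher. Derl3, of the machinery that removes misfolded proteins, had 65 reads in the TAS-Seq cell and 36 in the 365 other B-like cells (log2 ratio 7.06), and 341 and 105 reads in the BD WTA library (6.38). Mzb1, a chaperone of IgM assembly, was at 1427 against 123 CPM (3.54) and at 1357 against 145 CPM (3.22). The chaperone gene Hsp90b1 was at 7205 against 672 CPM and at 5814 against 654 CPM. Tnfrsf13b, the receptor TACI, was lower in the TAS-Seq cell (80.1 against 200.1 CPM, log2 ratio -1.32) and at 116 against 206 CPM in the BD WTA cells. Of the transcription elongation factor Ell2 the TAS-Seq cell held 4 reads and the BD WTA cells 278, in 3 of 6 cells.

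The B-cell identity list of 18 genes stood on the lower side. Here the same filter acts in reverse. A gene well under 100 CPM in Jchain-high cells passes only through the other B-like cells and can only be lower. In the TAS-Seq cell 15 of 17 genes over the filter were at least 2-fold lower and 0 were higher, where 36.4% of all genes were lower, with a median of -2.73. In the BD WTA cells 13 of 18 were lower and 0 were higher, where 51% of all genes were lower, with a median of -2.93. The 4 BD WTA cells over 10000 CPM of Jchain gave 18 lower of 18, against 66% of genes, and the 2 smaller cells gave 9 lower and 1 higher, against 43.1% of genes lower. The median log2 ratio of all genes was -1.59 in the 4 larger cells and -0.74 in the smaller ones. The part in these shifts of the reads taken by Igkc, Ighm and Jchain was not tested. Pax5, the factor that keeps B-cell identity, had 57 reads in the TAS-Seq cell (218 against 675 CPM) and 0 reads in all 6 BD WTA cells, against 8387 reads in 328 other B-like cells. Cd22, Spib, Bach2, Bcl6 and Ciita were also at 0 reads in the BD WTA cells. In the TAS-Seq cell Cd22 had 150 reads (572 against 759 CPM) and Bach2 had 0. Ciita, the regulator of MHC class II genes, had 1 read there, and H2-Ab1 was at 19.1 against 3475 CPM. In BD WTA cells H2-Ab1 was at 1785 against 6008 CPM and was read in all 6. Fcer2a had reads in 1 of the 6 BD WTA cells, a smaller one with 96 reads.

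By the rule for genes that led in both libraries, those highest in Jchain-high cells beside Jchain were Prg2, Derl3, Igkj5 and Tent5c. Each was at 12.0 CPM or less in other B-like cells. They passed the filter of 100 CPM only through the Jchain-high cells, which fixed them as higher. Prg2, a granule protein gene known from eosinophils, had 28 reads in the TAS-Seq cell and 0 in other B-like cells, and in the BD WTA library 262 reads in 4 of the 6 cells and 1 read elsewhere among B-like cells. Tent5c, which lengthens the tails of secreted protein mRNAs, had log2 ratios of 5.04 and 5.44. Igkj5, a joining segment of the kappa locus, had 730 reads in the BD WTA Jchain-high cells, all in 1 cell. The lowest were H2-Ob, Baz1a, Vim, Ciita and Plac8, with 1, 1, 1, 1 and 2 reads in the TAS-Seq cell. In the 6 BD WTA cells they had 14, 0, 0, 0 and 11 reads. These lowest genes passed the filter only through the other B-like cells, so they could only be lower. Vim, which encodes the filament protein vimentin, had 4003 and 4549 reads in the other B-like cells.

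Jchain and Xbp1 were high in the same few cells, and the 250 bases before the annotated starts of both genes are shown, with the core ACGT, which XBP1 and related factors are known to bind, in capitals. The sequences are from RefSeq on GRCm38.p6, which gave windows for Jchain, Xbp1, Prdm1 and Irf4.
Jchain, chr5:88527898-88528147, minus strand: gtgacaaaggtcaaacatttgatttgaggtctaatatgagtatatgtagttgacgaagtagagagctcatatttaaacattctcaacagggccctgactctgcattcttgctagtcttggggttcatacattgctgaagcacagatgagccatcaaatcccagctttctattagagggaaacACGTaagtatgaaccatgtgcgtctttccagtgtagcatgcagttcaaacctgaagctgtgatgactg
Xbp1, chr11:5520391-5520640, plus strand: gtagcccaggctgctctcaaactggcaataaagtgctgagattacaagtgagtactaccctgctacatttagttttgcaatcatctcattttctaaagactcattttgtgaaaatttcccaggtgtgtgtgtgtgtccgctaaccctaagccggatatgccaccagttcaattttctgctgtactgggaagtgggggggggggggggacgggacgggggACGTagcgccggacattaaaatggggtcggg
ACGT reads the same on both strands. It was found 1 time in each of these windows and was not found in those of Prdm1 and Irf4, and 26.9% of 32851 mouse windows of this length hold it. The E-box form CANNTG, searched on both strands, was found in the windows of Jchain, Xbp1 and Prdm1, and in 66.2% of all windows. The octamer ATGCAAAT of immunoglobulin promoters was not found in any of the 4 windows, and 1.60% of all windows hold it. These matches are a description of the letters only.

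Counted at 5 unthinned reads or more, the 3 transcription factor genes reached more kinds of cells than Jchain. From 1 read up, Jchain was also found in 13 TAS-Seq and 8 BD WTA T-like cells, against 3 and 5 for Prdm1. Irf4 reached 5 reads in 11.05% of TAS-Seq B-like cells (7.98% to 14.8%) and 9.97% of BD WTA B-like cells (6.83% to 13.9%) at 20000 reads, while T-like cells gave 0.830% (0.101% to 2.97%) and 0.376% (0.00952% to 2.08%). In the unnamed clusters with B-cell markers it reached 22.7% (13.3% to 34.7%) and 7.27% (2.02% to 17.6%). Xbp1 reached 5 reads in 7.93% (5.34% to 11.3%) and 9.97% (6.83% to 13.9%) of B-like cells, while T-like cells gave 1.66% (0.454% to 4.19%) and 3.76% (1.82% to 6.80%). At the same depth Xbp1 reached 5 reads in 3 of 23 NK-like cells of the BD WTA library (13.0%, 2.78% to 33.6%). In the unnamed TAS-Seq cluster with T-cell and NK-cell markers it did so in 4 of 47 cells (8.51%, 2.37% to 20.4%). Both intervals overlap those of the B-like cells. The order of Irf4 and Xbp1, with B-like above T-like cells, held in both libraries, with intervals that did not overlap for Irf4 in either library and for Xbp1 only just in each. These B-like cells include the Jchain-high cells, which all held Xbp1 reads. Without them, Xbp1 by BD WTA was 8.45% (5.54% to 12.2%), which overlaps the T-like interval. By TAS-Seq it was 7.67% (5.12% to 10.96%), still apart, and the Irf4 intervals stayed apart in both libraries.

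Prdm1, a factor that activated T cells also use, was not concentrated in B cells. Its share with 5 reads was 1.13% (0.310% to 2.88%) and 0.664% (0.0806% to 2.38%) among B-like cells. Among T-like cells it was 0.415% (0.0105% to 2.29%) and 1.13% (0.233% to 3.26%). These intervals overlap. Without thinning, 15 TAS-Seq cells and 11 BD WTA cells held at least 5 Prdm1 reads. Of the TAS-Seq cells 7 were B-like, 2 were T-like, 2 lay in the unnamed cluster with B-cell markers and 4 in the unnamed cluster with T-cell and NK-cell markers. Of the BD WTA cells 4 were B-like, 4 were T-like, 1 was NK-like and 2 were unnamed. The 15 and 11 cells, 2.05% and 1.55% of all filtered cells, included 0 of the Jchain-high cells. Within B-like cells 0 of the 7 and 0 of the 4 Prdm1 cells also held 5 reads of Xbp1, and 2 and 0 also held 5 reads of Irf4. Over all B-like cells, 12.3% and 11.7% held 5 reads of Xbp1, and 15.6% and 12.0% held 5 reads of Irf4. Beside these shares, counts from so few Prdm1 cells are no result. Xbp1 and Irf4 were read together in 8 of 366 and 10 of 334 B-like cells, out of 45 and 39 cells with Xbp1. Whether these overlaps differ from those shares was not tested.

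Other heavy chain classes were rare. Igha, the IgA constant gene, had 236 reads in 24 TAS-Seq cells and 27 reads in 7 BD WTA cells. Ighg3 had 139 reads in 13 cells and 501 reads in 9 cells, Ighg2b 13 reads in 3 cells and 116 reads in 2 cells, and Ighg2c 2 reads in 2 cells and 38 reads in 1 cell. The Jchain-high cells held 17 Igha reads in the TAS-Seq library and 0 reads of these 4 genes in the BD WTA library. Igkc was at 271816 CPM in the TAS-Seq Jchain-high cell and at a mean of 325700 CPM in the BD WTA ones, against 9305 and 12622 CPM in other B-like cells. The 4 larger BD WTA cells ranged from 265459 to 581953 CPM of Igkc, and the smaller ones had 76166 and 16679 CPM, the last near the mean of other B-like cells. The lambda genes varied: Iglc3 was at 904 against 1176 CPM and 905 against 918 CPM, while Iglc2 was at 1603 against 1355 CPM and at 4151 against 968 CPM, where the smaller BD WTA cell with 769 Iglc2 reads stands out.

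Between the libraries, Jchain was at 44.99 CPM (42.9 to 47.2) in the pooled TAS-Seq cells and 780.0 CPM (770.3 to 789.8) in the BD WTA cells, a log2 of TAS-Seq divided by BD WTA of -4.12. Xbp1 was at 44.2 and 115.1 CPM (-1.38) and Ighm at 2465 and 4164 CPM (-0.76). Ighd was at 788 and 805 CPM (-0.03), Irf4 at 56.6 and 50.8 CPM (0.16) and Prdm1 at 9.54 and 7.75 CPM (0.30), the last under the filter of 10 CPM. So 2 of the 5 genes over the filter were 2-fold higher by BD WTA, where 5.81% of 10028 genes were so, 10% were higher by TAS-Seq and 15.9% differed either way. The median log2 ratio of those genes was 0.10. Without the 1 and 6 Jchain-high cells, a choice made after the data were seen, 0 of the 4 genes still over the filter differed 2-fold, where 15.6% of 10032 genes did, 9.73% toward TAS-Seq and 5.86% toward BD WTA. Beside a share of 15.6%, a count of 0 among 4 genes is no result about these genes. Jchain chose the cells left out, so its fall to 2.04 and 3.04 CPM, under the filter, was fixed by that choice. Xbp1 then stood at 38.3 and 71.3 CPM (-0.90) and Ighm at 2134 and 2537 CPM (-0.25). Among B-like cells alone, with the Jchain-high cells kept, the log2 ratios were -4.08 for Jchain, -1.42 for Xbp1, -0.89 for Ighm, -0.21 for Irf4 and 0.04 for Ighd, so that Irf4 and Ighd, which differed little, changed sign, where 21.9% of 9780 genes differed 2-fold, 14.5% toward TAS-Seq and 7.39% toward BD WTA.

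Ighm reads in T-like cells did not keep the proportion to other B-cell genes that B-like cells showed. In B-like cells without the Jchain-high cells there were 48.4 Ighd, 246.9 Igkc, 90.6 Cd79a and 322.4 Cd74 reads per 100 Ighm reads in the TAS-Seq library. T-like cells of that library had 6.68 Ighd, 29.9 Igkc, 12.7 Cd79a and 47.8 Cd74 reads per 100 Ighm reads. In the BD WTA library the B-like values were 39.02, 251.5, 107.9 and 314.3, and the T-like values 3.11, 10.8, 12.1 and 28.6. The mean Ighm level of T-like cells was 334 and 346 CPM, and that of other B-like cells was 3645 and 4546 CPM. Among T-like cells without a read of Cd79a, 33 of 59 TAS-Seq cells (55.9%, 42.4% to 68.8%) and 90 of 252 BD WTA cells (35.7%, 29.8% to 41.97%) still held at least 5 unthinned Ighm reads, against 63.7% and 37.2% of all T-like cells. Without an Igkc read, 2 of 8 TAS-Seq T-like cells (25%, 3.19% to 65.1%) and 50 of 146 BD WTA T-like cells (34.2%, 26.6% to 42.5%) did, and mean Ighm was 218 and 319 CPM. Without a read of Cd79a, Cd79b and Ms4a1, 20 Ighm reads were held by 4 of 23 TAS-Seq (17.4%) and 58 of 238 BD WTA T-like cells (24.4%), against 35.5% and 25.3% of all T-like cells. The part of free RNA and of doublets in these reads was not tested.

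**Figure D5:**
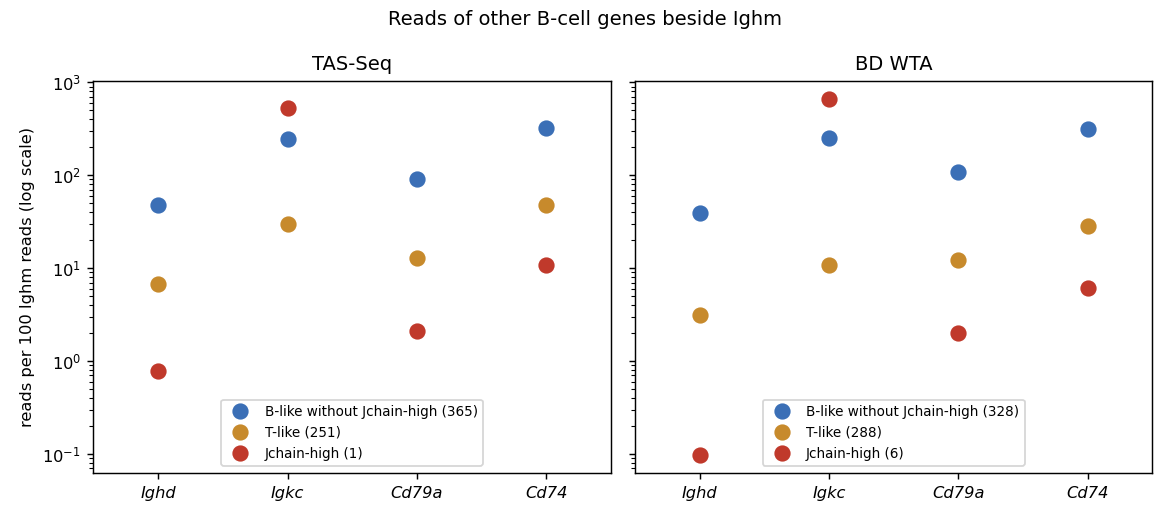
Reads of Ighd, Igkc, Cd79a and Cd74 per 100 Ighm reads on a log scale, in B-like cells without the Jchain-high cells, T-like cells and Jchain-high cells of each library, with the number of cells in brackets. For all 4 genes the T-like value lies under the B-like value in both libraries, and the pooled Jchain-high cells have the most Igkc and the least Ighd per Ighm read, although 1 of the 6 BD WTA cells has 149 Igkc reads per 100 Ighm reads.

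The genes whose pattern over all filtered cells was most like that of each heavy chain gene were other B-cell genes. By the lower of both libraries' Pearson r of log2(CPM + 1), over 16000 genes, Ighd was followed by Cd74 (0.77 by TAS-Seq over 732 cells and 0.79 by BD WTA over 708), Igkc (0.75 and 0.75), H2-Aa (0.75 and 0.81), Cd79a (0.74 and 0.84) and H2-Ab1 (0.73 and 0.79). For Ighm the order was Cd74 (0.73 and 0.74), Cd79a (0.72 and 0.76), H2-Aa (0.70 and 0.70), Igkc (0.70 and 0.69) and Ms4a1 (0.69 and 0.68). Neighbours in both orders cannot be told apart, since each library gives 1 value. For Jchain the values were low, since few cells hold reads: Derl3 led (0.21 and 0.38), followed by Prlr (0.15 and 0.30), Fkbp11 (0.14 and 0.15), Srpr (0.15 and 0.13) and Atf5 (0.13 and 0.20). Irf4 stood at rank 50 for Jchain, Prdm1 at 229, Xbp1 at 254 and Ighm at 269. All these values describe cells that share a library and a range of depths.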

How the data were processed

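The authors deposited whole-number read counts per gene and cell barcode, with no molecular identifiers and no normalization. According to the study's methods and the submitters' processing notes, reads were trimmed with cutadapt (2.10 in the notes), mapped with Bowtie2 2.4.2 to Ensembl transcripts of GRCm38, and barcodes over the inflection point were kept; mapping to transcripts gives no intron reads, and whether a background subtraction was applied to these tables is not given in the sources used here. The labels give frozen cells and 1 library per method, which differs from the study's own spleen comparison.

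Here, cells with under 500 genes or over 25% mitochondrial reads were removed. Each library was clustered with Seurat 5.3.0 (20 components, resolution 1, immunoglobulin genes and the 6 genes left out). A cluster was named where at least 3 markers were raised (log2 difference of 1, reads in 50% of its cells), at least 1 of its top 10 genes was such a marker and no other type had more; this naming rule came after the clusters had been looked at, and rebuilt names may differ from the authors'. Scrublet in scanpy 1.11.5 called 3 and 4 doublets, which were kept. For shares, cells were thinned to 20000 reads, which left out 25 and 63 shallower cells. Sets without a read were given 3 reads as a floor in ratios. The genes and lists were chosen with earlier results of these data known. Named genes were the 6 genes, members of the lists, the 5 most alike by correlation, and the 5 highest and 5 lowest in Jchain-high cells in both libraries. Heavy chain genes Ighg1 and Ighe were not analysed here, and 1 gene of the maturation list is not reported here. TMM factors came from edgeR 4.0.16. Scripts were tested on simulated data. Positions are from GENCODE vM21, promoters from RefSeq.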

Additional observations from a re-analysis of the deposited data

How the results depend on the processing

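No paired analysis was possible because only 1 library was made by each method. Depth sets how low a level can be seen. The median Ighm share kept within its interval under every setting in both libraries, except for marker-chosen B cells in the TAS-Seq library (69.8%). The share of B-like cells with Ighm moved to 95.8% (TAS-Seq) and 94.7% (BD WTA) at a minimum of 20 reads, and to 100% in marker-chosen TAS-Seq cells. For Ighd it moved to 95.5% and 89.4% at 1 read, to 74.5% and 66.1% at 20 reads, to 84.2% and 77.5% with 10000 reads per cell, and to 87.2% in marker-chosen TAS-Seq cells. Jchain cells in the TAS-Seq library numbered 3 at 100 CPM and 0 at 10000 CPM. The Jchain share was 95.5% and 31.7% for the top cell, 99.9% for the top 10 BD WTA cells, and 89.4% and 96.2% with cells weighted equally. The Ighm share was 14.01% and 12.8% for the top cell, 20.4% and 46.5% for the top 10, and 5.99% and 13.7% with cells weighted equally. Prdm1 in T-like cells was 0% in both libraries at 20 reads. Genes that differed 2-fold between libraries numbered 4182 at a filter of 1 CPM and 226 at 100 CPM, against 1590. Leaving out the Jchain-high cells, a setting added after the data were seen, brought the genes of the 6 that differed 2-fold to 0. For Jchain this follows from the choice of the cells. With only the 2 BD WTA Jchain-high cells under 10000 CPM, also added later, 9 secretory genes were higher, against 19. The log2 ratios between libraries of the 6 genes kept their sign under the scalings and cell filters tried, and those of Irf4 and Ighd turned with B-like cells alone.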
